A study of Mus musculus with 6 samples.

Results

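The DUSP, Sprouty and Spred genes described here are 10 genes that encode brakes on MAP kinase signalling, Dusp1, Dusp2, Dusp4, Dusp5, Dusp6, Dusp10, Spry1, Spry2, Spred1 and Spred2. They were taken by symbol from the deposited count table, which held all 10 among 11922 genes, and all 10 were among the 11759 genes that passed the low-count filter. The cells were splenic CD8+ T cells of C57BL6/J mice, purified on CD8α microbeads, activated for 72 hours with anti-CD3/anti-CD28 beads and expanded for a further 4 days, always with recombinant human IL-2 at 100 units per ml. The vehicle cultures received water and the AOA cultures 0.25 mM aminooxyacetic acid, an inhibitor of enzymes that need vitamin B6, from the start to day 7, when RNA was taken. Each of 3 donor mice gave 1 culture to each group, which makes 3 libraries per group, and a replicate number stands for the same mouse in both groups. The methods give mice of both sexes, older than 6 weeks, for the experiments as a whole, and no age or sex for each donor.

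Activation through the T cell receptor, CD28 and cytokine receptors loads the small G protein RAS with GTP and starts kinase cascades that end in ERK, JNK and p38. The phosphorylated kinases induce many of their own inhibitors, which makes the brakes part of a feedback loop. DUSP proteins of the MAP kinase phosphatase class remove the activating phosphates from the kinases themselves. Sprouty and Spred proteins act higher up, between receptors and RAF, and Spred proteins bring neurofibromin to the membrane to switch RAS off.

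Total counts lay between 12881962 and 18934869 with vehicle and between 18696114 and 21997078 with AOA. Levels are given as CPM, counts scaled to library size with the TMM method, and as RPKM, the same value per kilobase of gene length, where genes are compared with each other. The difference between groups was tested in edgeR with its quasi-likelihood method across all genes that passed the filter, and a gene is called changed at a Benjamini-Hochberg adjusted p under 0.05. Vehicle replicate 2 differed from the other vehicle libraries by a chi-square per gene of 55.2 and 59.9, against 10.03 between vehicle replicates 1 and 3. AOA replicate 1 stood apart in the same way, at 70.9 and 64.3 against 10.5 between AOA replicates 2 and 3. Of 6 CD8 T cell markers in the table, Cd8a and Cd8b1 were higher with AOA and Cd3d, Cd3e, Cd3g and Cd247 were not called. Of the CD4 T cell markers 3 of 4 were lower, and the list summed to between 48.8 and 65.9 RPKM with vehicle and between 9.26 and 15.7 RPKM with AOA. Of the B cell markers 1 of 4, Cd79b, was higher, and that list summed to 9.73 to 12.5 RPKM with vehicle and 17.6 to 24.3 RPKM with AOA. The only myeloid and the only NK cell marker that passed the filter, Itgam and Klrb1c, were lower with AOA (log2 fold changes -5.25 and -3.02), and their lists summed to 8.81 to 12.2 and 7.65 to 43.9 RPKM with vehicle and 0.289 to 1.58 and 1.39 to 4.59 RPKM with AOA. Lyz2, which defines myeloid cells, had 0, 5 and 0 counts with vehicle and 6, 22 and 2 with AOA, Cd14 had 13, 16 and 5 against 0, 1 and 0, and Ncr1, which defines NK cells, had 0, 37 and 0 against 5, 11 and 3. None of 4 erythroid markers was in the table. These markers moved with the groups, and their part in the changes given below was not tested. In bulk RNA, fewer cells that express a gene and less of its RNA per cell cannot be told apart.

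Dusp2, Dusp5, Dusp4 and Dusp6 were lower with AOA, and Spred1 and Spry1 were higher. Dusp1, Dusp10, Spry2 and Spred2 were not called. Of the 10 genes, 6 were therefore called, 4 lower and 2 higher, in an experiment where 53.0% of all tested genes were called, 26.8% lower and 26.2% higher. The share among these genes is close to that background, and the calls of Dusp6 and Spry1 were lost when single libraries were left out, that of Spry1 also with DESeq2. For the same 6 genes the AOA libraries lay entirely on one side of the vehicle libraries, as they did for 62.1% of all tested genes, 31.1% lower and 31.0% higher. The median log2 fold change of the 10 genes was -0.54, against -0.02 over all genes tested.

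**Figure D1:**
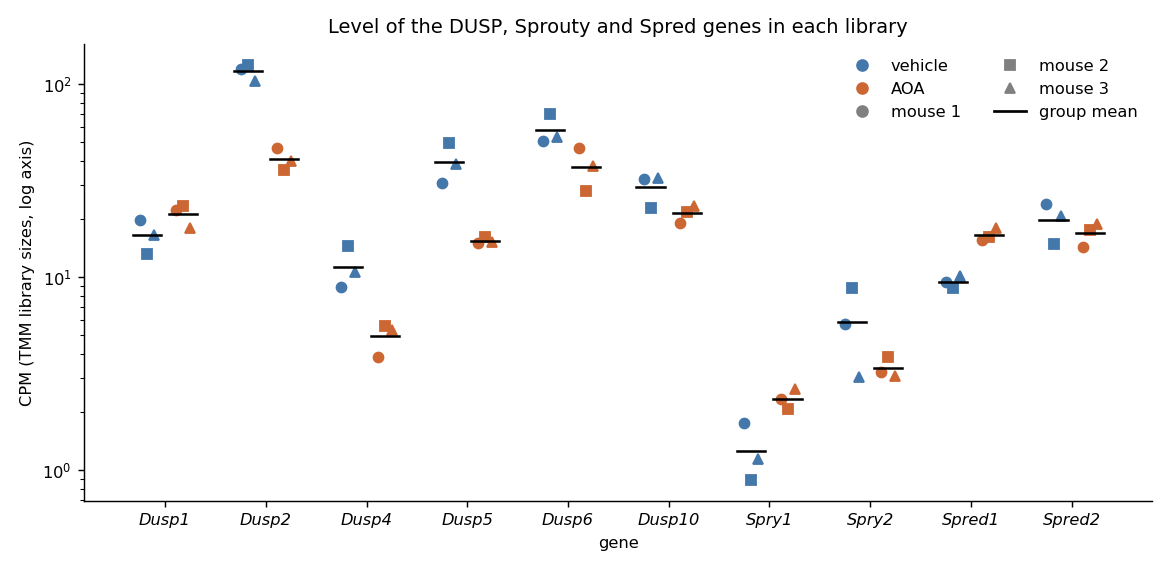
CPM of each gene on a log axis in every library, with vehicle in blue, AOA in orange, the marker shape giving the mouse and the bar the group mean (n = 3). The AOA points of Dusp2, Dusp4, Dusp5 and Dusp6 lie below all vehicle points, those of Spry1 and Spred1 above, and the other 4 genes overlap.

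Dusp2 encodes a nuclear phosphatase that is typical of activated lymphocytes and acts mainly on ERK and p38. The gene (Entrez 13537) lies on chromosome 2 of GRCm38.p6 from 127336159 to 127338377. It was at 120, 126 and 104 CPM in vehicle replicates 1, 2 and 3, and at 46.9, 36.1 and 40.15 CPM in AOA replicates 1, 2 and 3. All AOA libraries were under 50% of the lowest vehicle library, the widest separation among the 10 genes. The log2 fold change was -1.51 (edgeR adjusted p = 7.01e-05, standard error 0.15), which leaves 0.351 of the vehicle level. Within the mice it was -1.36, -1.81 and -1.37, and the call held in all 15 alternative fits (other tools, scalings and filters, the mouse as a block, or a library left out).

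Dusp5, a nuclear phosphatase selective for ERK, was the second gene in size of change. The gene (Entrez 240672) lies on chromosome 19 from 53529145 to 53541809. Vehicle replicates 1, 2 and 3 were at 30.8, 49.8 and 38.8 CPM. The AOA replicates were at 15.1, 16.1 and 15.2 CPM, a far narrower spread (SD 0.562 against 9.53). The log2 fold change was -1.36 (edgeR adjusted p = 3.94e-04, standard error 0.19). The length of Dusp5 in the count table, 1155 bases, equals its coding sequence with the stop codon, so its counts may cover coding bases only, which was not tested, whereas the other 9 lengths are larger than the coding part of the gene.

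Dusp4 encodes a nuclear phosphatase of ERK and JNK. The gene (Entrez 319520) lies on chromosome 8 from 34807610 to 34819894. Its level was 8.89, 14.5 and 10.6 CPM in the vehicle libraries of mice 1, 2 and 3 and 3.86, 5.60 and 5.35 CPM in AOA replicates 1, 2 and 3. The groups did not overlap, and the log2 fold change was -1.20 (edgeR adjusted p = 0.00374, standard error 0.26). The highest vehicle value was that of replicate 2, and without that library the log2 fold change was -0.95 (adjusted p = 0.00670 by edgeR).

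Dusp6, the cytoplasmic counterpart of Dusp5 and equally selective for ERK, had a smaller and less certain fall. The gene (Entrez 67603) lies on chromosome 10 from 99263231 to 99267489, where a long noncoding gene of the RefSeq annotation, Gm34921, overlaps it. GENCODE lists no overlap for Dusp6. It gives one for Dusp1 (Ergic1, on the other strand, and small noncoding or pseudogene entries), Dusp5 (an antisense gene), Dusp10 (1700056E22Rik) and Spry1 (Gm42922). The RefSeq annotation lists none for Dusp1, Dusp5, Dusp10 or Spry1. In GENCODE the Dusp1 gene spans 56539 bases, whereas in RefSeq it lies from 26505591 to 26508472. Since the strand setting of the counting is not known, reads of overlapping genes on opposite strands may not have been told apart. Vehicle replicates 1, 2 and 3 were at 51.0, 70.4 and 53.5 CPM, and AOA replicates at 46.6, 28.01 and 37.7 CPM. The groups did not overlap, but AOA replicate 1 was within 5 CPM of vehicle replicate 1, and the changes within the mice were -0.13, -1.33 and -0.50. The log2 fold change was -0.64 (edgeR adjusted p = 0.0266, standard error 0.21). The call was lost without vehicle replicate 2 (-0.44, adjusted p = 0.0807), without AOA replicate 2 (-0.46, adjusted p = 0.0851) and without AOA replicate 3 (-0.64, adjusted p = 0.0694).

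Dusp10, which acts on JNK and p38, was at 32.1, 22.9 and 32.6 CPM in the vehicle libraries of mice 1, 2 and 3 and at 19.1, 21.7 and 23.5 CPM in the AOA replicates. The gene (Entrez 63953) lies on chromosome 1 from 184034381 to 184075636. Vehicle replicate 2 fell inside the AOA range and the other vehicle libraries were above it. The log2 fold change of -0.45 (95% interval -0.85 to -0.05, adjusted p = 0.0588 by edgeR) missed the threshold. Without vehicle replicate 2 the gene was called, at -0.56 (adjusted p = 0.00975).

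Dusp1, the classic immediate early phosphatase of p38 and JNK, was the only DUSP gene of the 6 with a higher mean in AOA cultures. The gene (Entrez 19252) lies on chromosome 17 from 26505591 to 26508472. Its level was 19.8, 13.1 and 16.6 CPM in the vehicle libraries of mice 1, 2 and 3 and 22.4, 23.4 and 18.1 CPM in AOA replicates. The ranges overlapped, although the AOA library was the higher in each mouse, by 0.18, 0.83 and 0.12 on the log2 scale. The log2 fold change of 0.37 (95% interval -0.06 to 0.81, adjusted p = 0.132 by edgeR) was not called in any of the 15 alternative fits.

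Among the Sprouty genes, which inhibit RAS-ERK signalling downstream of receptors, Spry1 was the least abundant of all 10 genes. The gene (Entrez 24063) lies on chromosome 3 from 37639947 to 37644599. It had 22, 14 and 21 counts in the vehicle libraries of mice 1, 2 and 3 and 51, 39 and 52 counts in AOA replicates, or 1.75, 0.888 and 1.14 CPM against 2.34, 2.06 and 2.62 CPM. The groups did not overlap, and the log2 fold change was 0.91 (edgeR adjusted p = 0.0480, standard error 0.34). At these counts the call stood close to the threshold. It was lost with DESeq2 (0.92, adjusted p = 0.0801), and without vehicle replicate 2 (0.76, adjusted p = 0.0710), vehicle replicate 3 (0.87, 0.125), AOA replicate 1 (0.91, 0.0980), AOA replicate 2 (1.00, 0.0765) or AOA replicate 3 (0.82, 0.156). Spry2 (Entrez 24064, chromosome 14 from 105891947 to 105896819) was at 5.71, 8.81 and 3.04 CPM in the vehicle libraries of mice 1, 2 and 3 and at 3.22, 3.86 and 3.08 CPM in AOA replicates. Vehicle replicates 1 and 2 were above every AOA library and vehicle replicate 3 was below them all. Its log2 fold change of -0.79 (95% interval -1.62 to 0.04, adjusted p = 0.0994 by edgeR) was not called. Without vehicle replicate 3 it was called, at -1.08 (adjusted p = 0.0199), and without vehicle replicate 2 it was -0.31 (adjusted p = 0.407).

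Spred1, whose product recruits neurofibromin to RAS, was the firmer of the rises. The gene (Entrez 114715) lies on chromosome 2 from 117121071 to 117182279. It was at 9.44, 8.81 and 10.2 CPM in the vehicle libraries of mice 1, 2 and 3 and at 15.6, 16.2 and 18.01 CPM in AOA replicates, with little spread in either group. The log2 fold change was 0.81 (edgeR adjusted p = 0.00315, standard error 0.17), with 0.72, 0.87 and 0.82 in the single mice, and the call held in all 15 alternative fits, although the change is under an absolute log2 fold change of 1. Spred2 (Entrez 114716, chromosome 11 from 19924442 to 20024026), a close relative with the same role, was at 24.05, 14.9 and 20.7 CPM in the vehicle libraries of mice 1, 2 and 3 and at 14.3, 17.5 and 18.9 CPM in AOA replicates. The ranges overlapped, the mice differed in direction (-0.75, 0.23 and -0.13), and the log2 fold change of -0.23 (95% interval -0.70 to 0.23, adjusted p = 0.370 by edgeR) was not called. It was -0.05 without vehicle replicate 1, -0.12 without AOA replicate 1 and -0.37 without vehicle replicate 2 (adjusted p = 0.0986), and was called in none of these.

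**Figure D2:**
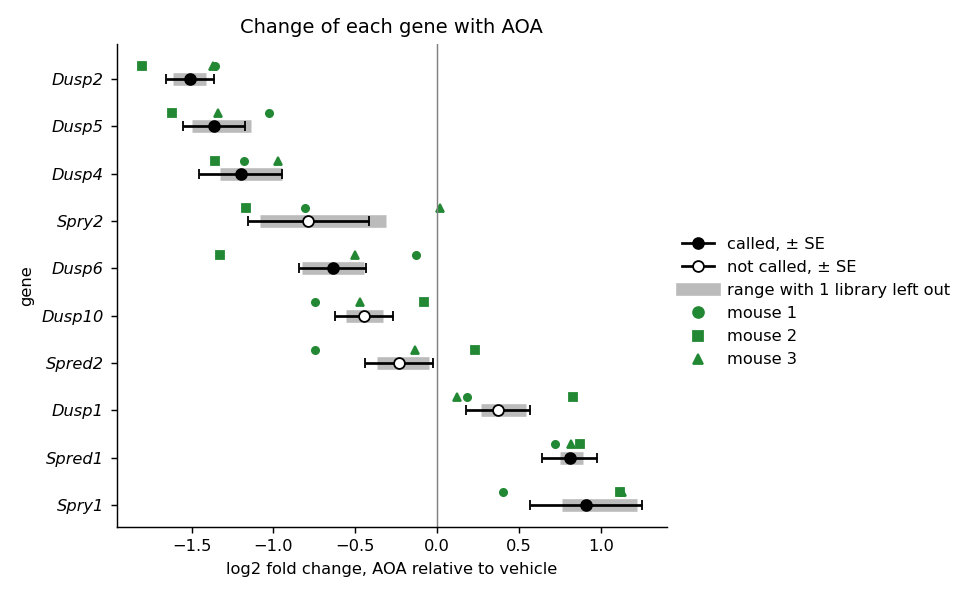
Log2 fold change of each gene, AOA relative to vehicle, with its standard error (black, filled where called), the range with 1 library left out (grey bars) and the difference within each mouse (green). Spry2 and Spred2 reach both sides of 0 among the mice. All the other genes stay on one side of 0 in every mouse, among them Dusp1 and Dusp10, which were not called. With a library left out no gene reaches 0.

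Compared per length, Dusp2 had the highest level in both groups, at 72.3 ± 7.15 RPKM with vehicle and 25.4 ± 3.38 RPKM with AOA (SD, n = 3). It stood at percentile 91.8 of the level of all tested genes with vehicle and at percentile 72.3 with AOA. Dusp5 followed at 34.4 ± 8.25 and 13.4 ± 0.487 RPKM, and Dusp6 at 20.8 ± 3.79 and 13.4 ± 3.33 RPKM (SD, n = 3). With vehicle these 3 genes were separated from each other and from Dusp10 in every library. With AOA, Dusp5 overlapped Dusp6 and Dusp6 overlapped Dusp1. Dusp10, Dusp1, Spred2, Dusp4 and Spry2 overlapped from neighbour to neighbour with vehicle, between 10.8 and 2.81 RPKM on average. Spred1 ranked ninth with vehicle (1.34 ± 0.0945 RPKM) and rose to rank 7 with AOA (2.35 ± 0.175 RPKM), where it overlapped Dusp4. Spry1 was lowest in both groups, at 0.505 ± 0.177 and 0.940 ± 0.113 RPKM (SD, n = 3).

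The summed level of the 6 DUSP genes was 145, 168 and 142 RPKM in the vehicle libraries of mice 1, 2 and 3 and 78.9, 68.6 and 71.6 RPKM in AOA replicates. The AOA mean was 0.482 of the vehicle mean, and 0.602 of it when Dusp2 was left out of the sum. The Spred pair summed to 8.26 ± 1.67 RPKM with vehicle and 8.23 ± 0.974 RPKM with AOA, and the Sprouty pair to 3.31 ± 1.34 and 2.56 ± 0.101 RPKM (SD, n = 3). Both of these sums overlapped between the groups. The share of Dusp2 in the sum of all 10 genes was 44.3 ± 2.48% with vehicle and 30.2 ± 2.40% with AOA (SD, n = 3). The share of Dusp1 was 5.27 ± 1.36% and 13.1 ± 1.98%, and that of Spred1 was 0.826 ± 0.123% and 2.81 ± 0.287% (SD, n = 3).

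**Figure D3:**
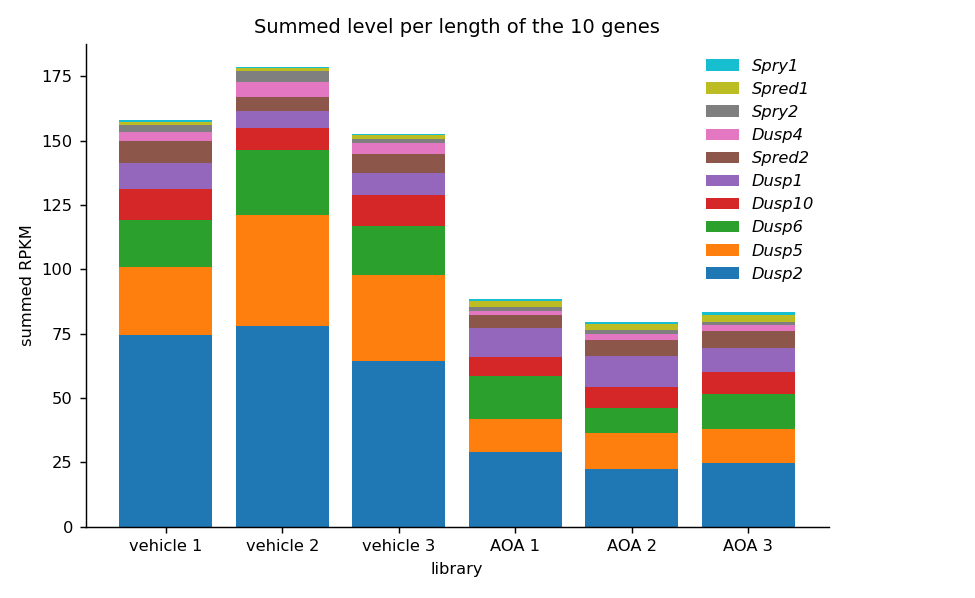
Summed level per length (RPKM) of the 10 genes in each library, stacked by gene with Dusp2 at the bottom. The vehicle bars reach 152 to 179 RPKM and the AOA bars 79.7 to 88.6 RPKM, with the Dusp2 and Dusp5 segments smaller in every AOA library.

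Ratios within a library, which do not rest on the scaling between libraries, were compared for 4 pairs of related genes. The ratio of Spry1 to Spry2 was -1.92, -3.48 and -1.63 on the log2 scale in vehicle libraries of mice 1, 2 and 3, and -0.71, -1.14 and -0.48 in AOA replicates. Spry1 thus stood at 0.197 of Spry2 with vehicle and at 0.583 with AOA. The ratio of Spred1 to Spred2 was -2.64, -2.06 and -2.33 with vehicle and -1.17, -1.42 and -1.37 with AOA, a difference of 1.02. The ratio of Dusp5 to Dusp6 was 0.71 ± 0.14 with vehicle and 0.03 ± 0.42 with AOA (SD, n = 3). These 3 ratios did not overlap between the groups, and each gave an exact permutation p of 0.1 (two-sided), the smallest that 3 libraries against 3 allow, and 0.133 after adjustment over the 4 pairs, so no pair could pass. The ratio of Dusp4 to Dusp2 was -3.97 ± 0.33 with vehicle and -3.64 ± 0.48 with AOA (SD, n = 3), with overlapping libraries (exact permutation p = 0.4). Without vehicle replicate 2, the Spry1 to Spry2 difference of 1.57 was 1.00.

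**Figure D4:**
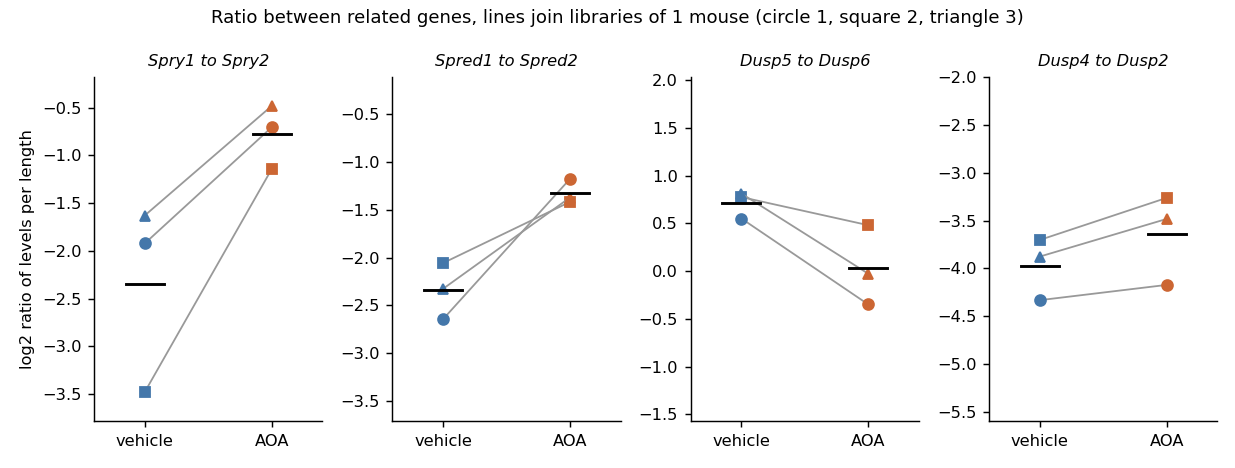
Log2 ratio of levels per length for 4 pairs of related genes, with lines joining the vehicle and AOA library of a mouse and black bars for group means (n = 3). Every axis spans the same number of log2 units. Spry1 to Spry2 and Spred1 to Spred2 are higher in all AOA libraries, and Dusp5 to Dusp6 is lower.

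The promoters of these genes differ in sequence, and 5 are printed because they belong to the genes with the firmest changes (Dusp2, Dusp5, Spred1), to Dusp6, the ERK phosphatase with the less certain fall, and to Dusp1, the phosphatase whose mean was higher. The RefSeq table of GRCm38.p6 held a promoter, 250 bases before to 50 after the start of the gene, for 9 of the 10 genes, with none for Dusp4. Capitals mark matches on either strand to motifs chosen after the sequences had been seen. These were the cyclic AMP response element (CRE) TGACGTCA, its core TGACGT, which lies within it, the AP-1 site TGANTCA, the E-box CACGTG, the CArG box of serum response factor, the TATA box TATAAA and the ETS site CCGGAAGT.
Dusp2 promoter, chr2:127335909-127336208, plus strand: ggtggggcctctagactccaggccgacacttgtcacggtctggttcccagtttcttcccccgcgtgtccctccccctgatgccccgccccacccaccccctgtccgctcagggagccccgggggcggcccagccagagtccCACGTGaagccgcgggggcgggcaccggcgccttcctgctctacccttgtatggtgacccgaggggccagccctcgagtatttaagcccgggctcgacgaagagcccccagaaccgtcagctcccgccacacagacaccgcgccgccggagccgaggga
Dusp5 promoter, chr19:53528895-53529194, plus strand: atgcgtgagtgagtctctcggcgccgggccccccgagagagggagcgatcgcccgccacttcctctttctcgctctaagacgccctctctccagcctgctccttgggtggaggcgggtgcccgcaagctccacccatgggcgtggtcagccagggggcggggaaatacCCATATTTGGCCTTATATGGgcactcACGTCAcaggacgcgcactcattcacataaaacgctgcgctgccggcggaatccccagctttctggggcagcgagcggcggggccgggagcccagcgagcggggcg
Dusp6 promoter, chr10:99262981-99263280, plus strand: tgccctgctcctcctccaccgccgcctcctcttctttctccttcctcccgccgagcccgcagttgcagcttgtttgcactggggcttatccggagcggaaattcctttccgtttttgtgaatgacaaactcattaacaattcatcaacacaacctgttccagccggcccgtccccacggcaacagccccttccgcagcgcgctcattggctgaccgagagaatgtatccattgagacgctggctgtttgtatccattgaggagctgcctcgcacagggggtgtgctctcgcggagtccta
Spred1 promoter, chr2:117120821-117121120, plus strand: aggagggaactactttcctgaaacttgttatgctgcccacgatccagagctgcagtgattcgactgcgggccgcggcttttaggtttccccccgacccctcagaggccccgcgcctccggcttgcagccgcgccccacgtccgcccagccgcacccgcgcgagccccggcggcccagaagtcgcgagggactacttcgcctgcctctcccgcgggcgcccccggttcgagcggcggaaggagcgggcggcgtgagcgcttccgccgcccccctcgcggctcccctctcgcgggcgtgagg
Dusp1 promoter, chr17:26508423-26508722, minus strand: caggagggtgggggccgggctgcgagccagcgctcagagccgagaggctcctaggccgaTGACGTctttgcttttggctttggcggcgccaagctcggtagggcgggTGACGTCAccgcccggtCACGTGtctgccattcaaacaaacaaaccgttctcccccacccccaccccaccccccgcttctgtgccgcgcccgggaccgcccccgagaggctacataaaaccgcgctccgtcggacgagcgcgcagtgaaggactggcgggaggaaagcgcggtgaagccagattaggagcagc
Dusp5 held 2 adjacent CArG boxes, CCATATTTGG and CCTTATATGG, at positions -82 to -63 from the start, a motif present in 1.63% of all 32851 promoters of the table and in 1.23% of the 11991 promoters of tested genes. Dusp1 held a complete CRE, at positions -143 to -136, which 1.79% of all promoters and 3.1% of those of tested genes contain. It held another CRE core from position -191 (TGACGT is in 7.51% of all and 11.9% of tested). An E-box, found in 7.15% of all promoters and 10% of those of tested genes, was present in Dusp1 and Dusp2. Dusp5 and Spred2 had a CRE core as well. No searched motif matched in Dusp6, Dusp10, Spry1, Spry2 or Spred1. The AP-1 site, the TATA box and the ETS site, which 7.81%, 13.6% and 3.89% of all promoters hold (4.9%, 6.74% and 8.45% of those of tested genes), matched in none of the 9. GC content was between 57.0% and 72.3%, highest in Spred1, against a median of 60.7% over promoters of tested genes. A match is a description of letters, and none was tested for binding here.

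Messenger RNAs of immediate early genes often carry the pentamer ATTTA in the 3′ untranslated region, where it can mark the RNA for rapid decay. In the GENCODE transcript with the longest coding part, Dusp2 had 4 copies in 581 bases (6.88 per kilobase) and Dusp1 had 4 in 690 (5.80 per kilobase). These densities were at or above those of 97.4% and 95.6% of 10429 tested genes, whose median was 1.30 per kilobase. The log2 fold changes of these 2 genes were -1.51 for Dusp2 and 0.37 for Dusp1, which was not called (95% interval -0.06 to 0.81). RNA decay was not tested. Spred1 carried 12 copies in a much longer region of 4330 bases (2.77 per kilobase), Dusp10 had 2.70, and Dusp5 and Dusp6 had 1 copy each.

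By Euclidean distance between mean-centred log2 CPM values over the 6 libraries, the genes most like Dusp2, the gene with the largest absolute change, included Cln3, a lysosomal membrane protein, Prkab2, a subunit of the kinase AMPK, Rexo5 and the lymphocyte adaptor Lax1. Their distances were 0.210 for Cln3, 0.230 for Prkab2, 0.234 for Rexo5 and 0.255 for Lax1.

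The nearest relatives outside the 10 genes included larger changes than any inside. Spred3, the remaining Spred gene, was at 9.84, 7.86 and 7.22 CPM in the vehicle libraries of mice 1, 2 and 3 and at 0.414, 0.370 and 0.303 CPM in AOA replicates, a log2 fold change of -4.49 (edgeR adjusted p = 1.51e-05, standard error 0.31). Spred1 and Spred3 therefore changed in opposite directions. Spry4 had between 2 and 24 counts in a library and was not called, and Spry3 was not in the table. Dusp14, a small dual-specificity phosphatase, was at 6.19, 11.2 and 4.83 CPM with vehicle and 0.782, 0.793 and 0.353 CPM with AOA (log2 fold change -3.51, standard error 0.44, adjusted p = 2.41e-04 by edgeR). Of the other 3 MAP kinase phosphatases tested, Dusp7, a cytoplasmic ERK phosphatase, was called lower (-0.68), and Dusp9 and Dusp16 were not called (0.71 and -0.48). That is 33.3% called, against 53.0% of all genes tested. The call of Dusp7 was lost without vehicle replicate 1 (-0.48) or 3 (-0.61) and without AOA replicate 1 (-0.63) or 2 (-0.59), with adjusted p between 0.0654 and 0.09997. Of 8 other dual-specificity phosphatases, 3 were lower and 1 higher, 50% called against 53.0% of all genes tested. Dusp22 (-0.71) and Dusp11, an RNA phosphatase (-0.60), were lower beside Dusp14. The higher one, Dusp28 (0.55), lost its call when mouse was a blocking factor (0.55, adjusted p = 0.0596), with the trend of counts with gene length removed (0.44, 0.0720), or without vehicle replicate 1 (0.61, 0.0691), vehicle replicate 3 (0.63, 0.0650), AOA replicate 1 (0.51, 0.0713), AOA replicate 2 (0.56, 0.0910) or AOA replicate 3 (0.59, 0.0913).

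Along the pathway, 79 tested genes in 9 lists included 12 higher and 23 lower, 44.3% called against 53.0% of all genes tested. The counts of single lists were small. Without vehicle replicate 1 or 3 the number higher was 6, and without AOA replicate 2 or 3 it was 7. Of 12 genes for RAS and its exchange factors, 5 were higher and 3 lower (median log2 fold change 0.19). That is 66.7% called, against 53.0% of all genes tested. Among those named here, Rras2 rose by 1.03 and Hras by 0.55. Rasgrp4 and Sos2, which load RAS with GTP, and the RAS relative Rras were lower (-2.54, -1.42 and -1.15). The call of Hras was lost without vehicle replicate 1 (0.47), vehicle replicate 3 (0.52) or AOA replicate 1 (0.45). Among 10 RAS GTPase-activating proteins, which return RAS to its inactive form, 4 were lower and 0 higher (median -0.46). The share called, 40%, was under the 53.0% of all genes tested. They included Dab2ip (-3.37) and Rasa4 (-0.92). The call of Rasa4 was lost without vehicle replicate 1 (-0.72), vehicle replicate 3 (-0.74), AOA replicate 1 (-0.92) or AOA replicate 2 (-0.85). Nf1, which encodes the neurofibromin that Spred proteins recruit, was at 16.3 ± 2.58 CPM with vehicle and 11.5 ± 2.23 CPM with AOA (SD, n = 3) and was not called (-0.50, adjusted p = 0.0644 by edgeR), a gene singled out after its value was seen.

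Of the kinases that the phosphatases act on or that lie above them, 3 of 9 genes of the ERK cascade and 3 of 9 of the JNK and p38 cascades were called, 33.3% of each list against 53.0% of all genes tested. In the ERK cascade, Map3k8 was 0.70 higher and Braf was lower (-0.78). Map3k8 was not called without vehicle replicate 1 (0.65), vehicle replicate 3 (0.60) or AOA replicate 1 (0.44). Mapk8, which encodes JNK1, and its activator Map2k4 were higher by 0.92 and 0.55, and the p38 isoform gene Mapk12 was lower (-1.74). Map2k4 was not called without vehicle replicate 1 (0.46, adjusted p = 0.0547) or AOA replicate 3 (0.52, adjusted p = 0.05004). Of 10 kinases that ERK or p38 activate, Mknk1, Mknk2 and Mapkapk2 were lower (-0.86, -0.75 and -0.48) and Rps6ka2 was higher (1.78). These made 40% called, against 53.0% of all genes tested. Mapkapk2 was not called without vehicle replicate 1 (-0.43), vehicle replicate 3 (-0.44), AOA replicate 1 (-0.37) or AOA replicate 3 (-0.44), nor Rps6ka2 without AOA replicate 3 (1.596, adjusted p = 0.0533).

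The list of transcription factor and early response genes downstream of ERK had 6 lower and 1 higher of 16 tested (median -0.43), 43.8% called against 53.0% of all genes tested. It holds genes that ERK signalling is known to induce, as well as Elk1, Elk3 and Elk4, whose proteins ERK phosphorylates. Of these last, Elk3 was among the lower genes (-0.92) and the others were not called, and these genes are named because of their place in the list. Egr1 was at 83.7, 89.1 and 55.9 CPM in the vehicle libraries of mice 1, 2 and 3 and at 10.8, 10.5 and 10.9 CPM in AOA replicates, a log2 fold change of -2.83 (edgeR adjusted p = 1.51e-05, standard error 0.20). Fosl2 and Ier3 were lower as well, with -2.78 and -1.75. Myc was the one that was higher, by 0.45, a call lost without vehicle replicate 1 (0.54, adjusted p = 0.0517), vehicle replicate 3 (0.37, 0.123), AOA replicate 2 (0.36, 0.123) or AOA replicate 3 (0.51, 0.0569). Fos, at 1.17 ± 0.271 CPM with vehicle and 2.46 ± 1.27 CPM with AOA (SD, n = 3), was not called (1.08, adjusted p = 0.0717 by edgeR) and was singled out after its value was seen.

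**Figure D5:**
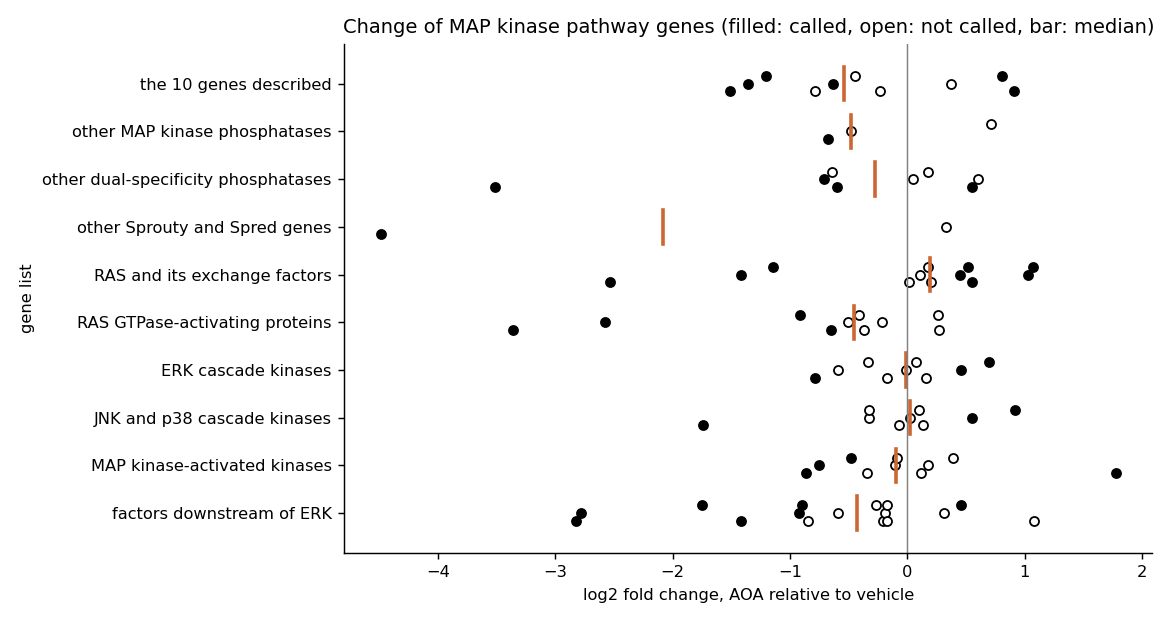
Log2 fold change, AOA relative to vehicle, of every tested gene in the lists by role, filled where called and open where not, with the median of each list as a bar. The RAS GTPase-activating proteins have no filled point above 0, and 40% of their points are filled, against 53.0% called over all tested genes. The list of other Sprouty and Spred genes holds 2 tested genes, of which Spred3 is at -4.49.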

How the data were processed

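RNA of 3 vehicle and 3 AOA cultures was sequenced by the study from stranded mRNA libraries as paired-end reads. The deposited table holds raw counts per gene, which the authors made from reads that STAR, on its defaults, mapped to a unique place, and the submitters' processing notes name featureCounts and the build mm10. The annotation, the versions and the strand setting of the counting do not appear in the sources used. A gene length in bases came with the counts, and 0 columns of per-sample values were left without a sample. The library totals give the precision for counting error only.

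The test was that of edgeR 4.0.16 (R 4.3.3), with filterByExpr with its minimum count of 10, TMM and the robust quasi-likelihood test. Benjamini-Hochberg adjustment was over all genes tested. The standard error is the log2 fold change divided by the root of the F statistic. Intervals use the total degrees of freedom of the quasi-likelihood test, the residual ones together with those of the prior. Log2 CPM has a prior count of 2, and ratios a pseudocount of 1 count. One gene without a symbol was kept by its Entrez number. The methods of the study name DESeq2, which was run as an alternative (1.42.0) with limma 3.58.1, other scalings and filters, removal of a length trend, and each library left out. The steps were tested on simulated data.

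The mouse numbers in the labels pair the cultures. Deviations from group means correlated within the mice across genes at 0.0868, 0.189 and 0.194 (Pearson), over genes that are no independent replicates.

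All 10 genes are reported. From each list by role up to 3 called genes per direction with the largest absolute change are named, and for the called gene with the largest change, at 10 CPM or more in the higher group, the 5 nearest in pattern. Some genes that this rule picks are not reported here. The genes and lists were chosen with earlier results of these data known. Promoters are RefSeq sequences of GRCm38.p6, the build of mm10, and 3′ untranslated regions come from GENCODE vM21. Dusp8, Dusp18, Mras, Rasgrp3, Ksr2, Mapk10, Mapk13, Rps6ka6 and Etv4 were also listed and had no row in the table, and Fosb did not pass the filter.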

Additional observations from a re-analysis of the deposited data

How the results depend on the processing

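The direction of the log2 fold change was the same as reported for each of the 10 genes in every alternative that gave a value. A minimum absolute log2 fold change of 1 left 3 genes, Dusp2, Dusp4 and Dusp5, and 0 of the higher ones. DESeq2 and the filter of at least 10 CPM in 3 libraries left 1 higher gene, and with each library left out there were 4 to 6 called genes and 1 to 2 higher ones. Spry1 was 0.92 with DESeq2. With each library left out the log2 fold change ranged from 0.76 to 1.22 for Spry1, from -0.82 to -0.44 for Dusp6, from -0.56 to -0.33 for Dusp10 and from -1.08 to -0.31 for Spry2. Dusp10 passed the threshold with the 10 CPM filter (-0.48), with the length trend removed (-0.46) and with this and the replicate block (-0.45). The cause of these shifts was not tested. Dusp4, Spry1 and Spry2 have no value under the 10 CPM filter, which removes them. With the mouse as a replicate block 6 of the 10 genes were called, the same 6 as without it, and the block changed no call among the 10. Leaving out each library gave 6 to 15 higher pathway genes. Spry1 had the fewest counts of the 10 genes, 14 to 52 in a library, which limits its precision.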
